A study of Daphnia magna with 24 samples.

Results

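The unexposed animals of this study were Daphnia magna, a small planktonic crustacean of fresh water, kept in medium alone and hybridised to 4 single-colour microarrays titled Control 1 to Control 4. They make up 4 of the 24 arrays of the series, which fall into 6 groups. The 4 arrays were chosen by title, and the other 20 arrays, from animals given silver nanowires or silver ions, were not compared with them. Per the labels, the animals grew in COMBO medium, a defined freshwater medium, under 16 h of light and 8 h of dark per day, with regular feeding and medium changes, and the media control received no silver. Total RNA of whole organisms was extracted with Trizol, and 300 ng per array was labelled with the dye Cy3. The labels give about 20 animals for an exposure group and no age for any group. They do not say whether the 4 Control samples came from separate cultures, so the spread given here is the spread between these samples and may be partly technical.

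Each array measured 14338 features, a feature being the spots of one short DNA probe. The deposited values are raw scanner intensities with a ceiling of 65535. Names come from the authors' deposited table of protein sequence matches, which has an entry for 1826 features (12.7%) and a description for 1024. For 493 features the match had an expectation value E of 0.001 or less; only these are termed described below. The table covers only part of the array and gives the authors' ratios of exposed over Control samples, with no rule of choice stated, so the lists below are not all the yolk, gut, hemoglobin, cuticle or ribosomal features of the array. Probes differ in sequence and in how well they bind, so an order of intensity is an order of signal and not of transcript number. In whole-animal RNA, fewer cells of a type and less RNA per cell cannot be told apart.

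Vitellogenin is the precursor of yolk, which daphnid mothers load into their eggs, and in Daphnia it is fused to a superoxide dismutase domain. Daphnid hemoglobin is dissolved in the hemolymph, carries oxygen and is known for its rise in oxygen-poor water. Trypsin and chymotrypsin are the main protein-cutting enzymes of the crustacean gut, cuticle proteins bind chitin in a shell that is shed at each moult, and ribosomal proteins are part of every ribosome in every cell.

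The probes that carry the main observations are shown here as the authors' deposited table gives them, 5′ to 3′; capitals mark bases that a probe shares with the other probe of its pair. The first set holds the brightest vitellogenin probe, a second vitellogenin probe, and the probes of the 2 hemoglobin features that were bright on all arrays. The trypsin pair is shown because the probes overlap: the last 14 bases of DM06036P1 are the first 14 bases of DM01947P1, of which the first 18 of 50 bases are printed. The cuticle pair has one best match and differs in spread, and the last 2 probes were dim on one array only.
DM02775P1 vitellogenin: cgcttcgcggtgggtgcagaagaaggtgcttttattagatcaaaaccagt
DM01556P2 vitellogenin: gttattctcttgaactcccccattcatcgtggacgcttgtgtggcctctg
DM01998P1 hemoglobin 4: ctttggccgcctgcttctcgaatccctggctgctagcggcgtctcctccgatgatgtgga
DM01561P3 hemoglobin: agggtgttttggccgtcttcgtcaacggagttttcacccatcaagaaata
DM06036P1 trypsin: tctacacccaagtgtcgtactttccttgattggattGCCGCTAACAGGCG
DM01947P1 trypsin type 5: GCCGCTAACAGGCGctaa
DM02344P1 cuticle protein 7: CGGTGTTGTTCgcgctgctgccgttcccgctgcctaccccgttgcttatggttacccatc
DM02085P1 cuticle protein 7: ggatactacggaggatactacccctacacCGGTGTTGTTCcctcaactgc
DM02768P1 ribosomal protein S24: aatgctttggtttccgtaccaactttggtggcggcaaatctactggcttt
DM01627P1 polyubiquitin: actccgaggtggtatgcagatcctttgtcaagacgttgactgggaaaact

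The 4 arrays were alike in their low range and differed in how many features stood out. Median raw intensity was between 60 and 69 on the 4 arrays. A feature counted as dim on an array when it lay below 2 times that array's lower quartile, and bright otherwise. By this rule 3664, 3809, 3513 and 4536 features were bright on Control 1, 2, 3 and 4, so Control 4 had the most, at 31.6% of features. Bright on all 4 arrays were 2938 features (20.5%), and 475 features lay within 10% of the limit on their dimmest array. Pairwise correlations of normalised log2 values across all features were between 0.924 and 0.963, features not being independent replicates, and no pair of arrays held identical values.

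Features in word lists for several tissues gave signal. Of the features in fixed word lists, 11 of 13 muscle features, 2 of 3 eye features (an opsin and 2 arrestins, proteins of light detection) and 3 of 4 chitin features (chitinases and a chitin-binding protein) were bright on all 4 arrays. Over all described features the share was 52.7%. The muscle list also took in actins, an actin-depolymerizing factor and myosins described as nonmuscle or smooth muscle, so it does not stand for muscle alone. The bright eye features were the arrestins, and the opsin was bright on 3 arrays. A list of words for algal food, such as photosystem and chlorophyll, had 0 described members. The 5 lists of yolk, hemoglobin, digestive, cuticle and ribosomal features are described in turn below.

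The strongest signals came mostly from features without a name, although the brightest 100 had names more often than features at large. The brightest 10 features had 0 entries in the authors' table, and 3 features, DM00429P1 and DM01597P2 among them, were at the ceiling on all 4 arrays, so their spread could not be measured. The brightest 100 features held 38.9% of the summed mean intensity of all features. Of these, 30 had an entry, against 12.7% of all features, and 12 were described, against 493 of all 14338. Of the 5 lists, 1 yolk, 1 cuticle and 1 ribosomal feature were among those 100, and 0 hemoglobin and 0 digestive features were. The last feature within the 100 and the next one had mean intensities of 11460 and 11430.

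The 15 brightest described features had mean intensities between 10793 and 36674, and 9 of them matched proteins labelled hypothetical or predicted. The top places were held by a vitellogenin, DM02775P1, at 36674 ± 15177 and the hypothetical protein DM02636P2 at 36342 ± 8633 (SD, n = 4 each), which did not differ beyond their spread. Without Control 4 their means were 31129 and 35760. Another, DM02810P1, was described as a Spätzle-like protein; in insects Spätzle is the secreted ligand of the Toll receptor. It had 15488, 13208, 8358 and 6601 on Control 1, 2, 3 and 4. A Spätzle-like probe that shares 29 bases with it, DM01743P3, had 12675, 11538, 7925 and 5810, in the same order over the arrays. DM02210P2, at 12652 ± 2706 (SD, n = 4), was described only as similar to CG6305, the Drosophila gene that another entry of the table calls a cuticular protein, so the word match for cuticle did not take it in.

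**Figure D1:**
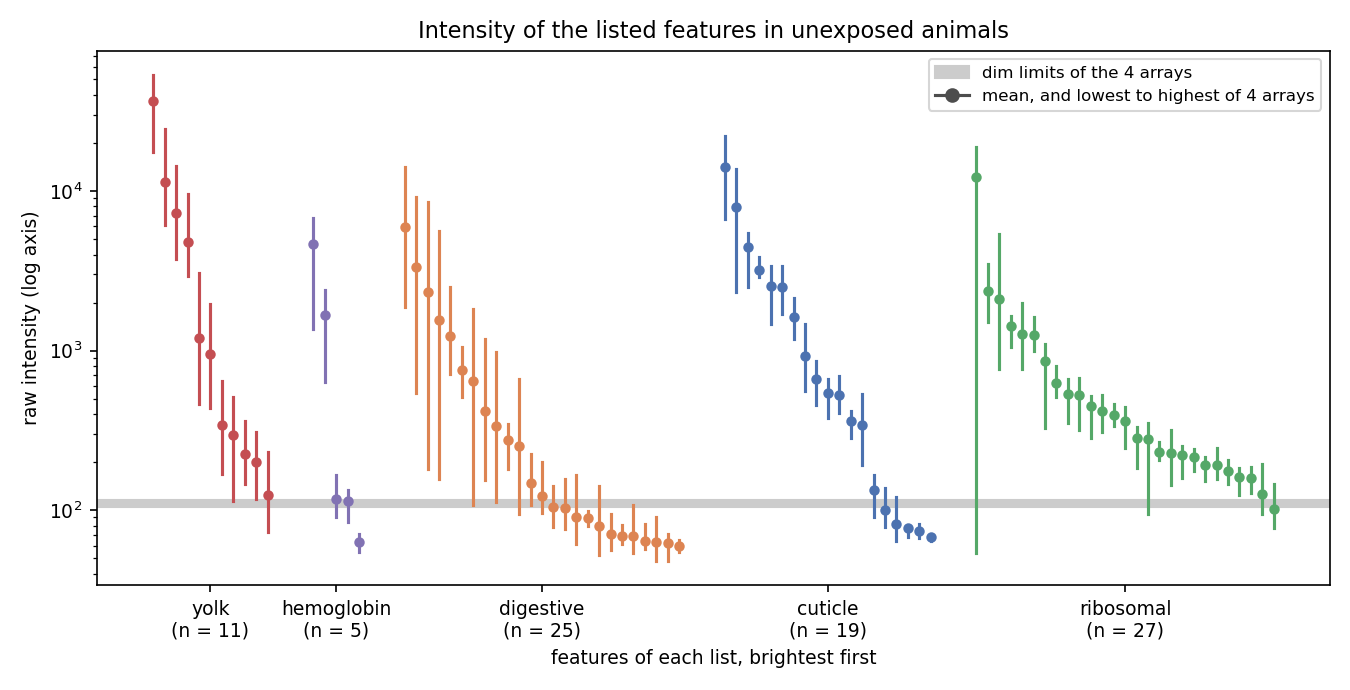
Raw intensity (log axis) of every feature of the 5 lists in unexposed animals; points are means and lines run from the lowest to the highest of the 4 Control arrays, and the grey band spans the limits below which a feature counted as dim. Each list runs from bright features down to features near the band, and the hemoglobin, digestive and cuticle lists run on to features well below it. The longest line is that of ribosomal protein S24, with 54 on Control 3.

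Yolk features gave strong signals and together held 0.999% of the summed mean intensity. The list had 11 features, 10 of them bright on all 4 arrays, with a median intensity of 957.5, against 219.5 over all 493 described features and 66.75 over all features. DM02775P1, a vitellogenin fused with superoxide dismutase, had 17536, 42662, 33190 and 53310 on Control 1, 2, 3 and 4. It ranked 15 among all features and its mean was 36674 ± 15177 (SD, n = 4); Control 1 lay lowest and Control 4 highest. DM01556P2 had 6088, 7993 and 7312 on Control 1, 2 and 3 and 24337 on Control 4, so that the first 3 arrays lay close together and Control 4 well above them.

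Other vitellogenin features did not all follow that order. DM02255P1 had 3675, 2925, 3158 and 9541 on Control 1, 2, 3 and 4, again with Control 4 alone on top. DM01857P2 had 3771, 4407, 14359 and 6527, and here Control 3 was highest. DM02106P1 was in the list by its words but is not described as a vitellogenin. Its match is similar to an outer layer protein of the vitelline membrane that surrounds the egg. DM02106P1 had 463, 484, 767 and 3083 and was highest on Control 4. The dimmest member, vitellogenin DM01555P3, had 100, 97, 73 and 230 and was bright on Control 4 only.

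On a common scale, 9 of the 11 features in the yolk list, DM02106P1 among them, were highest on Control 4. For this the intensities were corrected for background, logged to base 2 and quantile-normalised, so that the 4 arrays had the same distribution, and the deviation of each value from the feature's mean over the arrays was taken. Of all 493 described features 29.8% were highest on Control 4, and of all 14338 features 22.9%. Among the 11 yolk features, 4 share a best match, 3 share another and 2 share a vitellogenin-like match. The 11 may therefore not be independent observations. The yolk list deviated on average by -0.15, -0.35, -0.12 and 0.62 on Control 1, 2, 3 and 4. Under the other 4 scalings tried, Control 4 stayed highest for 9 or 10 of the 11, with mean deviations between 0.61 and 0.99. The list had the highest median intensity of the 5 lists, but not without Control 4, where it was 571.3 in place of 957.5 and that of the cuticle list was 601.3. Without that array the median spread of the yolk list was 0.389 in place of 0.60.

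Several vitellogenin features shared a best match and still differed widely in signal. The 4 features matched to one vitellogenin ranged from 125.0 to 11430 in mean intensity, and 3 features matched to a second one from 295.2 to 36670. The longest run of identical bases between any 2 yolk probes was 8, so these probes differ in sequence. A pair of features matched to a vitellogenin-like protein of the salmon louse had 201.8 and 224.8.

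Hemoglobin gave 2 bright features of 5, and they did not vary in the same way. DM01998P1, hemoglobin 4, had 1364 on Control 1 and 6316, 4038 and 6812 on Control 2, 3 and 4, a mean of 4632 ± 2491 (SD, n = 4). Control 1 was thus the low array. DM01561P3, a second Daphnia magna hemoglobin, had 2145, 632, 2403 and 1523, and here Control 2 was lowest.

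The other hemoglobin probes were near the dim limit or well below it. DM01565P1, with the same best match as the bright hemoglobin 4 probe, had 71, 67, 55 and 61 and was dim on all 4 arrays. DM01948P1, with the same match as DM01561P3, had 90, 110, 103 and 167 and was bright on Control 4 only. DM01620P3, a 2-domain hemoglobin subunit, had 133, 129, 84 and 111. The longest run of bases shared by any pair of hemoglobin probes was 9. The median intensity of the list was 117.5 and it held 0.104% of the summed signal. Its median spread was 0.288 over all 5 and 0.135 without Control 1.

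Features of the digestive list ranged from dim to bright, and several differed widely between the arrays. They entered by words in their descriptions, among them carboxypeptidase D, cathepsin L and matches to bacterial trypsins. Whether each member is a gut enzyme was not tested. The 25 features had a median intensity of 122.5; 10 were bright on all 4 arrays and 8 were dim on all 4. Bright features numbered 12, 12, 11 and 17 of 25 on Control 1, 2, 3 and 4. The brightest was trypsin DM01846P3, with 1864, 4535, 3353 and 14158 and a mean of 5978 ± 5562 (SD, n = 4). It was lowest on Control 1 and highest on Control 4.

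The largest gaps in the digestive list separated Control 4 from the other arrays. Trypsin type 5, DM01947P1, had 367, 220 and 181 on Control 1, 2 and 3 and 8509 on Control 4. Trypsin DM06036P1 had 295, 157 and 162 on those 3 arrays and 5592 on Control 4; its probe overlaps that of trypsin type 5 by 14 bases, so the 2 features may not be independent observations. Chymotrypsin DM02109P1, a gut protease that cuts at other residues than trypsin, had 539, 2286, 1456 and 9176. Carboxypeptidase B, DM01830P1, which trims amino acids from peptide ends, had 107, 329, 326 and 1831. All 4 features were highest on Control 4, and the trypsin pair lay within a narrow range on the first 3 arrays.

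Not every feature of the digestive list shared that gap. Papain family protease DM02974P1 had 113, 130, 115 and 983, but carboxypeptidase D, DM06108P1, had 510, 715, 719 and 1058 with a normalised SD of 0.28. The alpha-amylase DM01660P4, a starch-cutting enzyme named here after its values were seen, was dim on all arrays with 59, 65, 55 and 60. On the normalised scale 19 of 25 digestive features were highest on Control 4, against the 29.8% of described features given above, and the list deviated by -0.30, -0.29, -0.23 and 0.82 on Control 1, 2, 3 and 4. All 7 members with an SD over 1 were highest on Control 4. Of the 25 features, 4 share a best match to a trypsin and 2 share a match to a chymotrypsin. The 25 may therefore not be independent observations. Under the other 4 scalings Control 4 was highest for 19 to 22 of 25, and without Control 4 the median spread of the list was 0.120 in place of 0.331.

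**Figure D2:**
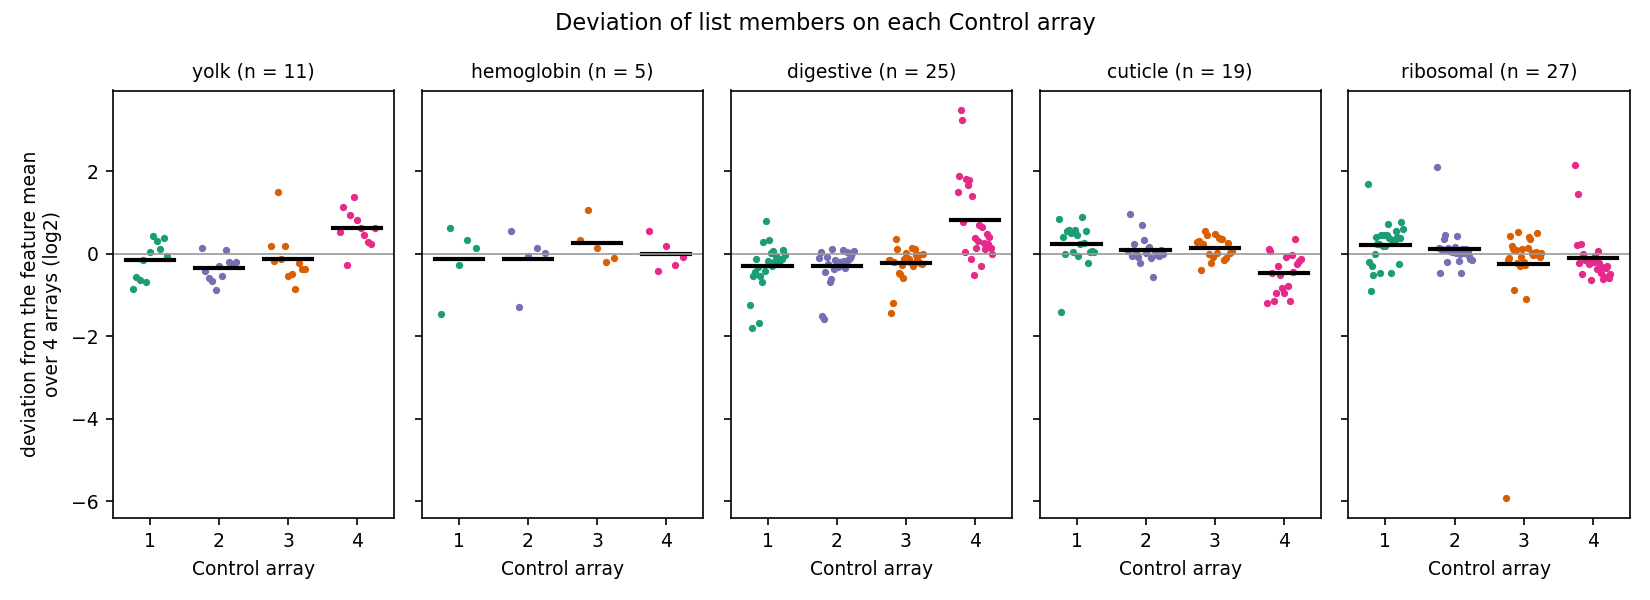
Deviation of each list member from its own mean over the 4 Control arrays (log2, quantile-normalised), one dot per feature and array; black bars are the list means. Digestive and yolk features lie mostly above 0 on Control 4, with means of 0.82 and 0.62, cuticle features mostly below it, with a mean of -0.47, and 1 ribosomal feature, S24, lies far below the others on Control 3.

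Cuticle features had strong signals and leaned the other way on Control 4. The 19 features had a median intensity of 546.0, 13 were bright on all 4 arrays, and together they held 0.634% of the summed signal. The brightest, DM02979P2, a match to a pupal cuticle protein of a mosquito, had 22137, 14315, 13552 and 6698 on Control 1, 2, 3 and 4. It was highest on Control 1 and lowest on Control 4. DM06074P3 had 3368, 2563, 2811 and 1474 and DM02211P2, a cuticular protein of the RR-2 family, which carries a chitin-binding consensus, had 3382, 2372, 2561 and 1688, in the same order as each other.

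Cuticle protein 7 showed the widest and the narrowest spread of the list under one name. DM02344P1 had 2328, 13742, 7020 and 8628, an SD of 1.00, with Control 1 lowest. DM02085P1, matched to the same protein, had 431, 582, 406 and 696, an SD of 0.08, one of the 10 least variable described features. The 2 probes share the run of 11 bases in capitals above, the longest in the list, against a median longest run of 6 over its 171 pairs.

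Of the 19 cuticle features, 15 were lowest on Control 4, against 30.8% of all described features, and the list deviated by 0.23, 0.09, 0.15 and -0.47 on Control 1, 2, 3 and 4. Quantile scaling without background correction, or to all arrays of the series, gave 15 of 19 as well. With median centring it was 12 of 19 and with no normalization between arrays 8 of 19, where the list mean was -0.14 on Control 3 and -0.13 on Control 4. Relative to the median of all bright features on each array, the list lay 0.40 log2 units lower on Control 4 with each quantile scaling. With median centring and with no normalization between arrays it lay 0.50 lower. These last values are equal by construction, because the settings differ only by a constant per array. Unscaled, the median bright feature itself lay 0.37 higher on Control 4 and 0.24 lower on Control 3. In the cuticle list 5 features share a best match and 3 share another, so the 19 may not be independent observations.

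Ribosomal features were moderately bright, with a spread near that of other bright features. The 27 features had a median intensity of 362.0, 23 were bright on all arrays and 0 were dim on all. Their median SD was 0.360, against 0.341 over all bright features. P2-like protein DM02189P2, part of the stalk of the large subunit, had 1826, 2600, 1501 and 3477, an SD of 0.21 after normalization. Proteins of the small subunit included S20, DM01714P2, with 763, 1178, 1085 and 5393, and S10, DM02536P2, with 934, 1102, 325 and 1077. S20 was high on Control 4 and S10 low on Control 3.

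The ribosomal feature with the highest signal was also the least steady. S24, DM02768P1, had 12335, 18085 and 18742 on Control 1, 2 and 4 and 54 on Control 3, where it was dim. Its normalised SD of 3.96 was the highest among all listed features, and it could not count among features bright on all arrays. Of the 27 features 16 were highest on Control 1, against 25.8% of described features, but 11 with median centring and 9 with no normalization between arrays, where 14 were highest on Control 4. The list's mean deviation on Control 3 was -0.24 with S24 and -0.02 without it, a value computed after the data were seen. On Control 4 the mean deviation was -0.10, and it turned to 0.23 with median centring and 0.32 with no normalization between arrays.

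Spread between unexposed arrays was small for most features. Among the 2938 bright features the SD of normalised log2 values had a median of 0.341, equal to a 1.27-fold difference, and the 10th and 90th percentiles were 0.142 and 0.823. An SD over 1 was found for 177 of them (6.03%). With 4 arrays an SD is poorly known, and its 95% interval runs from 0.57 to 3.73 times the value given. Features under a mean intensity of 100 had a median SD of 0.101, those between 1000 and 10000 one of 0.422. Dim features lie near the lowest raw values of the arrays, between 43 and 45, and the background correction adds an offset. Their low spread is therefore no sign of steadiness.

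Set against features of like brightness, yolk and digestive features varied more and ribosomal features did not. The ratio of each SD to a running median over features of neighbouring intensity had a median of 1.86 for digestive, 1.57 for yolk, 1.35 for cuticle, 1.03 for hemoglobin and 0.93 for ribosomal features. Over all 493 described features the ratio was 1.29, and over bright features without an entry 0.79. The authors' table covers part of the array, so its entries are no random draw from it. The ratios describe these features and were not tested. They were not recomputed without Control 4, on which the spread of both lists leaned. Without it the median SD was 0.389 for yolk, 0.120 for digestive and 0.358 for ribosomal features, against 0.293 for bright features.

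**Figure D3:**
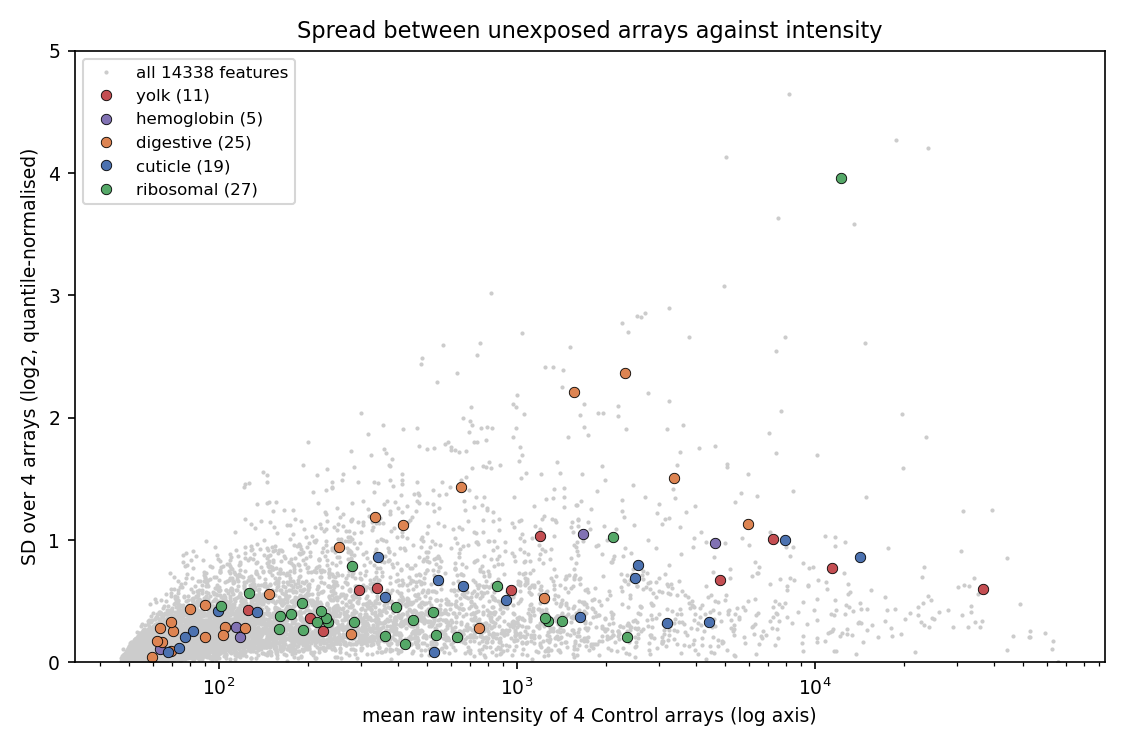
SD of normalised log2 values over the 4 Control arrays against mean raw intensity (log axis), with all 14338 features in grey and the 5 lists in colour. Digestive features lie highest among the lists in the middle range, with 7 above an SD of 1, ribosomal protein S24 stands at 3.96, and the brightest yolk feature at 0.60.

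Among features bright on all 4 arrays, the most variable described ones were mostly highest on Control 4. Of the 15 with the largest SD, 11 were highest on Control 4, and 8 were lowest on Control 1. Of all 260 described bright features, 25.8% were highest on Control 4 and 31.5% lowest on Control 1. Features dim on any array could not enter this ranking. That left out S24 and polyubiquitin, low on Control 3, with SDs of 3.96 and 3.64. It also left out carboxypeptidase B DM01830P1, highest on Control 4, with 1.44. The pattern of the 15 thus depends partly on that rule. Cytochrome oxidase subunit 2, DM01577P1, an enzyme subunit encoded by mitochondrial DNA, had 167, 214 and 166 on Control 1, 2 and 3 and 12410 on Control 4, an SD of 2.89. A feature whose probe shares 21 bases with it on the opposite strand, DM07083P1, was dim on all 4 arrays, with 82, 71, 66 and 96; it was picked after its values were seen. A solute carrier family member, DM02485P1, had 230, 364, 282 and 6604, again far higher on Control 4.

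Other members of the 15 had different extremes. Chaperonin DM01385P3, a protein that helps others fold, had 3972, 5248 and 6748 on Control 1, 2 and 4 and 340 on Control 3. DM05824P1, an unnamed protein, had 839, 343, 2493 and 220 and was highest on Control 3. DM00374P1, similar to CG4062, had 1054, 8939, 1267 and 3525 and was highest on Control 2. DM05889P1 was the one with a single low value on Control 4, having 456, 535, 536 and 126.

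The choice of the 15 leaned on Control 4. When the ranking was repeated without one array, 11, 14 and 11 of the 15 stayed among the 15 most variable without Control 1, 2 and 3, and 5 stayed without Control 4. Of 31 described bright features with an SD over 1, 22 were highest on Control 4, against 25.8% of all described bright features. Over all 177 bright features with an SD over 1 it was 69, and over all bright features 20.8%.

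**Figure D4:**
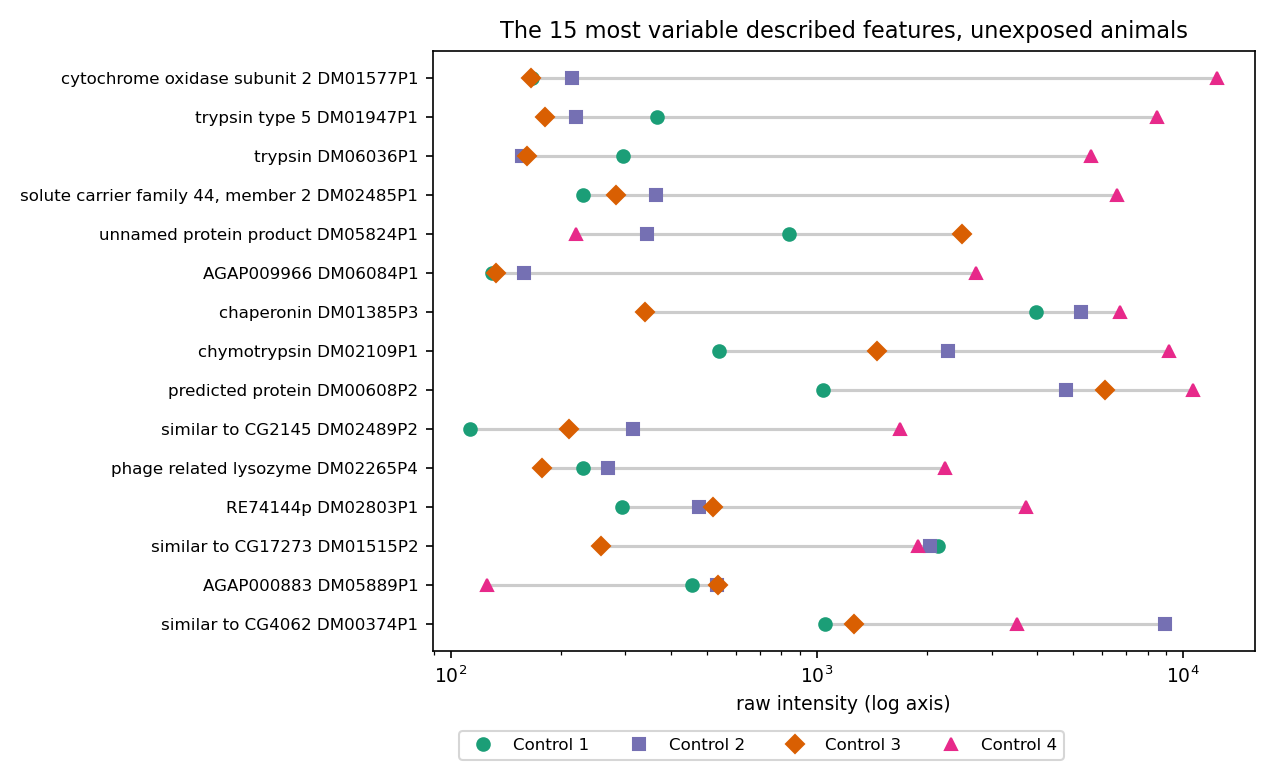
Raw intensity (log axis) of the 15 described features with the largest spread among features bright on all 4 Control arrays, ordered by SD; each symbol is one array. Control 4 is the rightmost symbol for most of them, Control 3 stands alone at the left for the chaperonin at 340, and the CG4062-like feature is highest on Control 2 at 8939.

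The 10 least variable described features had SDs between 0.078 and 0.147 over mean intensities from 133.0 to 11824. DM02905P1, matched to a predicted protein of a moss, was among both the brightest and the steadiest, with 10764, 13396, 10603 and 12534. DM02145P2, matched to the silkworm protein kiser, had 3529, 3535, 2726 and 4406. Nucleosome assembly protein DM03060P3, a histone chaperone, had 512, 713, 500 and 1024, and paramyosin DM02640P3, which forms the core of invertebrate thick filaments, had 143, 135, 106 and 198. Their raw values still differed between arrays, mostly with Control 4 highest, a shift that the normalization removes.

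Some features were dim on one array and bright on the rest. A feature was counted when it was dim on one array and the other 3 each exceeded 8 times its value, or when one array exceeded 8 times the highest of the others; this limit was chosen after the data were seen. The rule used raw intensities of all 14338 features, not scaled between arrays. Unscaled, the median bright feature lay 0.37 log2 units higher on Control 4 and 0.24 lower on Control 3. Single low arrays numbered 9, 0, 18 and 2 for Control 1, 2, 3 and 4, and single high arrays 6, 2, 3 and 35. With a limit of 4 times, the numbers were 17, 1, 38 and 2 low and 16, 3, 6 and 109 high. A different measure, given below, used normalised values of the bright features. It counted 68, 8, 41 and 34 single low and 34, 3, 25 and 33 single high arrays, so Control 4 did not stand out there.

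Single low values on Control 3 touched several well-known proteins. Polyubiquitin DM01627P1, a chain of ubiquitin units that marks proteins for breakdown, had 8807, 10424 and 10908 on Control 1, 2 and 4 and 53 on Control 3. Its coding sequence is made of near-identical repeats, so a probe for it may read related sequences too. Actin-depolymerizing factor DM02234P1, which takes actin filaments apart, had 568, 831 and 903 on those arrays and 50 on Control 3. Together with S24 these values lay close to the lower quartile of all features on Control 3, which was 52. What moves with these low values was not tested.

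Features without a description showed the same kind of spread. DM01683P3 had 454, 461 and 494 on Control 1, 2 and 4 and 52634 on Control 3, the largest SD of all bright features at 3.58. DM04207P2 had 17279, 2379, 11661 and 468 and was lowest on Control 4, with an SD of 2.66. Both were bright on all 4 arrays, and neither could be named from the files.

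Some probes in the authors' table share sequence with each other. Among the 1826 probes in the authors' table, 48 pairs shared a run of 14 or more bases on the same strand and 27 pairs shared one on opposite strands. Both features were bright on all 4 arrays in 22 same-strand and 10 opposite-strand pairs, and among these the brighter was at the median 1.41 and 7.28 times the dimmer. In 10 of the 27 opposite-strand pairs one feature was bright on all 4 arrays and the other dim on all 4, as in 4 of the 48 same-strand pairs. In 16 same-strand pairs the end of one probe was the start of the other, like the 2 trypsin probes, and 8 of these had both features bright on all arrays. Of those 8 pairs, 7 had the same highest array and 5 the same lowest one. Of all 22 bright same-strand pairs, 13 had the same highest array and 13 the same lowest, and of the 10 bright opposite-strand pairs 3 and 4 did. The rate for unrelated pairs was not computed. Of all bright features, 30.2%, 15.9%, 33.2% and 20.8% were highest on Control 1, 2, 3 and 4. The shares that were lowest there were 31.7%, 16.0%, 17.0% and 35.3%. Pairs were found by sequence alone; the ratios set different probes against each other and are descriptions.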

How the data were processed

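Scanner intensities of 24 single-colour arrays were used as deposited; the sources used here name neither scanner nor extraction settings, and the values were whole numbers not scaled between arrays. The E values, each a score of a protein sequence search, were deposited by the authors and served only to choose names. The members and word lists were chosen with earlier results of these data known. Intensities of the 4 Control arrays were corrected with normexp (offset 50), logged and quantile-normalised with limma 3.58.1 in R 4.3.3; tables were made with Python 3.11.15 and pandas 2.3.3. A script of the same steps was checked on simulated data. Rank by brightness used mean raw intensity, and spread was the SD over 4 arrays. No comparison between groups was tested, because 1 group is described; single arrays far from the rest were marked with Dixon's ratio. Named were the 15 brightest, 15 most and 10 least variable described features (the last 2 kinds among bright ones), all yolk and hemoglobin features, the 6 brightest and 6 most variable digestive, cuticle and ribosomal features, 2 and 2 of each other list, and 2 and 2 features without a description. The number of arrays limits the precision.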

Additional observations from a re-analysis of the deposited data

Results flagged for a closer look

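Among the 104 features named by rule, 17 had 1 array far from the other 3: the gap from that array to its nearest neighbour, divided by the whole range of the normalised log2 values, passed the 95% critical value of Dixon's ratio for 4 values, which chance alone passes in about 1 of 20 groups. The same held for 246 of the 2938 bright features (8.37%). Many of the 104 were named for the large spread of these same values, so their number cannot be read against that rate. Over all bright features, single high arrays numbered 34, 3, 25 and 33 and single low arrays 68, 8, 41 and 34 on Control 1, 2, 3 and 4.

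Among the named features low on Control 3, polyubiquitin DM01627P1 had the largest share of its range in that gap, 0.984, and ribosomal protein S24, DM02768P1, followed with 0.943. Actin-depolymerizing factor DM02234P1 had 0.918, chaperonin DM01385P3 had 0.888, and the ubiquitin conjugating enzyme DM00326P3, which hands ubiquitin on to target proteins, had 0.858 with raw intensities of 359, 535, 82 and 758.

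Other named features were high on Control 4. Cytochrome oxidase subunit 2, DM01577P1, had a gap of 0.971, and DM06084P1, a mosquito protein match without a name, one of 0.943. Phage-related lysozyme DM02265P4 had 0.916 and papain family protease DM02974P1 had 0.912. Solute carrier DM02485P1 had 0.900. Ferritin heavy chain DM01902P1, a protein that stores iron, had 113, 102, 114 and 1316 on Control 1, 2, 3 and 4 and a gap of 0.856. The 1 named feature low on Control 4 by the same measure was DM05889P1, with 0.835.

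On Control 1, the 10 kDa putative secreted protein DM02000P3 was high, with 17826 against 7519, 5457 and 7607 on Control 2, 3 and 4 and a gap of 0.920. Cytochrome P450 DM02419P1, of a family that oxidises foreign compounds, was high there too, with 766, 369, 267 and 506 and a gap of 0.919. Hemoglobin 4 DM01998P1 was low on Control 1 with a gap of 0.891, and compound eye opsin DM02717P2 with 0.860 and raw intensities of 100, 178, 132 and 226. The undescribed feature DM01683P3 was high on Control 3, with a gap of 0.920. What moves with these single values was not tested.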

How the results depend on the processing

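Of 123 values recomputed under other settings for the 5 lists, the bright count and the bright spread, 114 moved by less than the spread between replicates. With no normalization between arrays, the median spread of bright features was 0.415 and that of yolk features 0.857. With members bright on all 4 arrays only, the median spread was 1.012 for hemoglobin, 1.127 for digestive and 0.622 for cuticle features, fewer features being counted. Taking any word match, 5 list features were among the 100 brightest in place of 3. Leaving out each array in turn, the median spread ran from 0.264 to 0.367 for bright features, from 0.135 to 0.330 for hemoglobin and from 0.120 to 0.416 for digestive features, the low ends being without Control 1, Control 1 and Control 4. The number of bright features was 2140 with a limit of 3 times the lower quartile. The authors' own significance mark in place of the E limit, added after the data were seen, moved none of the list values past that spread. No paired analysis was possible because only 1 group was described. Features at the ceiling or the floor have no measurable spread.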

Other observations

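Other word lists held both steady and variable signals. In the respiratory chain list, NADH dehydrogenase subunit 5, DM02802P1, had 5834, 4687, 3266 and 8512 on Control 1, 2, 3 and 4, and the Rieske iron-sulphur subunit DM01734P2 had 1816, 2741, 1440 and 2797, an SD of 0.19. Both are parts of the mitochondrial electron transport chain. The most variable member of the list, ubiquinol-cytochrome c reductase subunit DM02249P3, had 625, 596, 475 and 302, an SD of 0.75. Cytochrome oxidase subunit 2, DM01577P1, with its SD of 2.89, was not taken in by the words of this list. Translation initiation factor 5A, DM01641P2, had 950, 1327, 971 and 1879 with an SD of 0.18. Initiation factor 4A2-like DM01590P4 had 227, 447, 135 and 566 with an SD of 0.61. The median spread of their list of 4 translation factors was 0.241. Arrestin 1, DM03055P2, which switches off light-activated rhodopsin, had 1497, 1979, 1372 and 2240, while arrestin 2, DM01248P1, had 657, 1010, 177 and 1123 and was lowest on Control 3.

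Heat shock protein 90, DM01059P3, a chaperone of signalling proteins, had 1949, 2332, 2085 and 2865, an SD of 0.20, and heat shock protein 60, DM02811P1, had 407, 439, 371 and 1039. Chitinase DM01822P3, which breaks down chitin at moulting and in the gut, had 3338, 5969, 1825 and 4007. Muscle fatty acid-binding protein DM02721P1, an intracellular lipid carrier, had 1620, 1719, 1481 and 5315 and was highest on Control 4. The putative defense protein DM02004P1 had 4615, 6185, 4413 and 8059, an SD of 0.16. Of the 6 redox and detoxification features, 2 were bright on all 4 arrays, and their median intensity was 280.0.

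A word match to cuticle with a weaker sequence match, named here after its values were seen, was brighter than any cuticle feature of the list. DM07126P3 had 38500, 34763, 43994 and 23656 on Control 1, 2, 3 and 4 and was lowest on Control 4, like most of the list. A second such feature, DM06603P3, had 11749, 17420, 11632 and 12559. Their matches did not reach the E limit, so whether they are cuticle proteins is uncertain.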
